A study of Homo sapiens with 6 samples.

Results

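The genes described here are 9 genes of MHC class I antigen presentation, taken by symbol from the 15832 genes of a table of transcript levels in AsPC-1, a cell line from human pancreatic cancer. They are the light chain gene B2M, the classical heavy chain genes HLA-B and HLA-C, the nonclassical heavy chain genes HLA-E and HLA-F, the peptide transporter genes TAP1 and TAP2, the loading factor gene TAPBP and the trimming enzyme gene ERAP1. RNA was sequenced from 3 libraries of cells transfected for 48 h with siVCPIP1, an siRNA against the deubiquitinase gene VCPIP1, and from 3 libraries of cells transfected for the same time with siControl. All 6 libraries came from the same cell line, and whether the 3 libraries of a group were separate cultures, and whether siVCPIP1 was a single siRNA or a pool, is not given in the sources used here. The p-values therefore rest on the spread among libraries that may differ only technically. The 9 genes were picked with the difference between siVCPIP1 and siControl already known, so their own differences are given as a description and without a test. Levels are in TPM, which scales for transcript length and for the library's total. All 9 genes passed the filter, a mean TPM over the 6 libraries no lower than 1, as did 10966 genes in all. ERAP1, with a mean of 0.40 TPM in siVCPIP1 and 6.70 TPM in siControl, passed it only through siControl. VCPIP1 passed it in the same way, with 0.17 TPM in siVCPIP1 and 2.74 TPM in siControl.

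MHC class I molecules show peptides from inside the cell to cytotoxic T cells. A heavy chain, B2M and a peptide make up the complex. Peptides are cut by the proteasome, carried into the endoplasmic reticulum (ER) by the TAP1/TAP2 transporter, trimmed there by ERAP1 and loaded with the help of tapasin (the product of TAPBP) and ER chaperones. HLA-B and HLA-C present peptides to T cells, HLA-E is best known as a ligand of an inhibitory receptor of natural killer cells, and HLA-F is a nonclassical heavy chain. Many of these genes are driven by interferon through interferon regulatory factors, by NF-kB, and by the NLRC5 and RFX proteins that act on the class I promoter.

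Of the 9 genes, 7 lie within the MHC on chromosome 6 between HLA-F and TAPBP, from 29722775 to 33314387 (GRCh38, GENCODE 29). B2M lies on chromosome 15 from 44711487 to 44718877 on the plus strand. ERAP1 lies on the minus strand of chromosome 5, between 96760810 and 96808100. RefSeq promoter windows, from 250 bases before to 50 bases after the start site (GRCh38.p14), were found for 8 of the 9 genes. The 5 windows below are shown because they belong to the light chain, to heavy chains whose levels differed in size of change, to the transporter and to the loading factor. Capitals mark matches, on either strand, to the interferon-stimulated response element (ISRE: GAAA, any 2 bases, GAAA), the Y box of class I promoters (CTGATTGG), the core of their X2 box (TGACG) or the kappaB motif.
B2M, chr15:44711267-44711566, plus strand: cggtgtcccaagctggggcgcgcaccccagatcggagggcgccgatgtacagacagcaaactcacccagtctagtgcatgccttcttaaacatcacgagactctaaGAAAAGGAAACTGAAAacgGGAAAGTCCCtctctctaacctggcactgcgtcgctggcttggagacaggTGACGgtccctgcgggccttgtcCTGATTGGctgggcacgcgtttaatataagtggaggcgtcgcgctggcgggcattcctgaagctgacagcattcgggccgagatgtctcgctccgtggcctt
HLA-B, chr6:31357130-31357429, minus strand: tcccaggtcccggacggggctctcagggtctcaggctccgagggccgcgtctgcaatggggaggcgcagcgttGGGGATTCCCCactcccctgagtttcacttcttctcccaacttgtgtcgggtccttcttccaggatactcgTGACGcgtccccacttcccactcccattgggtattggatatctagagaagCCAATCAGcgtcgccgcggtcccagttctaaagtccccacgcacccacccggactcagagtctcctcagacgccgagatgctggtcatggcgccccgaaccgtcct
HLA-F, chr6:29723184-29723483, plus strand: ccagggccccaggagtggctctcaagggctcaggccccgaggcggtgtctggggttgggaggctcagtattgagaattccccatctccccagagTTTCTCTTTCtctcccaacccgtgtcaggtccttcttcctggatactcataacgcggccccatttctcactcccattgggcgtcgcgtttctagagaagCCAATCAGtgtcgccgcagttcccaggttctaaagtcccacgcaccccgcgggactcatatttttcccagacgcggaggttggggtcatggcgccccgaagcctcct
TAP1, chr6:32853655-32853954, minus strand: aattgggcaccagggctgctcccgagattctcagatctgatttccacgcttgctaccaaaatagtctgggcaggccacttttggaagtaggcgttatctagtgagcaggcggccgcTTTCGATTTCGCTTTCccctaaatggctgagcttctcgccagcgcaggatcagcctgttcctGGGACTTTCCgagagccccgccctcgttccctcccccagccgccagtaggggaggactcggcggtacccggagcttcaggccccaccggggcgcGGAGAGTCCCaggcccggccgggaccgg
TAPBP, chr6:33314029-33314328, minus strand: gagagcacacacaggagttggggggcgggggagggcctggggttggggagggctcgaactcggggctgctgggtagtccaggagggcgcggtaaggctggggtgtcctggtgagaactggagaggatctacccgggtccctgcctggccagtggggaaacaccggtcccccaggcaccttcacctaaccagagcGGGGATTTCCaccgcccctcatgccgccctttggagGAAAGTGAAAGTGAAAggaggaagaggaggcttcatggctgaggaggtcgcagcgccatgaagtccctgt

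An ISRE match was present in 6 of the 8 windows (B2M, HLA-F, TAP1, TAP2, TAPBP and ERAP1) and in 3.57% of 35116 promoter windows of the same length. The Y box was present in 4 (B2M, HLA-B, HLA-C and HLA-F), against 3.97% of all windows. The X2 core was present in 4 (B2M, HLA-B, HLA-C and TAP2), against 24.6% of all windows, and the kappaB motif in 6 (B2M, HLA-B, HLA-C, TAP1, TAPBP and ERAP1), against 5.91%. In B2M, TAP1 and TAPBP a pair of ISRE matches overlap each other, and in HLA-B the kappaB capitals hold 2 overlapping matches. These matches describe the letters and show no binding.

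VCPIP1, the gene targeted, stood at 0.12, 0.11 and 0.27 TPM in the siVCPIP1 libraries, against 2.93, 3.06 and 2.24 TPM in the siControl libraries (log2 difference -1.68, SE 0.13, limma, adjusted p = 2.0e-05; exact permutation p = 0.1, the smallest that 3 libraries against 3 allow). After GC and length correction its difference was 0.27 (limma, adjusted p = 0.065). Over the whole series, most genes had lower TPM in siVCPIP1: of the 10966 genes tested, 66.0% were called lower and 15.0% higher by limma with Benjamini-Hochberg adjustment at 0.05, and the median log2 difference was -1.12 on the log2(TPM + 1) scale. Without the filter, over 15832 genes, the median log2 difference was -0.44. The siVCPIP1 libraries had 1.24 to 2.26 as their median TPM and the siControl libraries 6.18 to 7.44. The difference followed GC content, with a median of -2.24 in the lowest and 0.48 in the highest of 10 bins of genes by GC content. Library 3 of siVCPIP1 stood apart from the other two: it correlated with them at r = 0.983 and 0.982 across genes, where those correlated with each other at 0.997. It was nearer to the siControl mean than libraries 1 and 2 in 84.0% of genes tested and in all 9 of the genes described here, so differences are given with and without it. Of the epithelial markers, keratins were high in both groups (KRT19 at 8924, 8723 and 7449 TPM in siVCPIP1, against 4665, 3909 and 4114 TPM in siControl), while EPCAM was at 3.19, 2.99 and 11.7 TPM in siVCPIP1, against 162.1, 196.2 and 157.3 TPM in siControl. The 6 fibroblast and endothelial markers in the table summed to 0.82 to 1.36 TPM in siVCPIP1 and 2.51 to 2.67 TPM in siControl. Of 4 haematopoietic markers in the table only CD68 passed the filter, and the 4 summed to 121.5 to 158.2 TPM in siVCPIP1 and 143.3 to 149.6 TPM in siControl. NKG7 was listed at 0 in siVCPIP1 library 2. The part of these shifts, of GC content and of library 3 in the results that follow was not tested, beyond the values without that library and after correction. TPM carries no read depth, so no counting interval can be given.

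B2M, the light chain shared by all class I molecules, had the lowest log2 difference of the 9 genes, although ERAP1 held a smaller share of its siControl mean. It stood at 53.1, 48.2 and 190.7 TPM in siVCPIP1 libraries 1, 2 and 3, against 1303, 1605 and 1251 TPM in the siControl libraries. The groups did not overlap, and even the highest siVCPIP1 library, library 3, lay far under the lowest siControl library. The mean was 97.3 ± 80.9 TPM in siVCPIP1 and 1386 ± 191 TPM in siControl (SD, n = 3 each), so that siVCPIP1 held 7.02% of the siControl mean. The log2 difference was -4.11 (SE 0.45), and -4.74 without siVCPIP1 library 3. Of 10966 genes tested, 64 had a lower log2 difference than B2M. In bulk RNA, fewer cells that express a gene and less of its RNA per cell cannot be told apart.

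The classical heavy chains were lower in siVCPIP1 by a much smaller factor in TPM as deposited, and not after median-of-ratios scaling. HLA-B stood at 35.1, 35.8 and 70.6 TPM in the siVCPIP1 libraries, against 105.9, 125.3 and 111.1 TPM in the siControl libraries. HLA-C stood at 65.4, 70.7 and 107.6 TPM in the siVCPIP1 libraries, against 166.4, 178.4 and 153.8 TPM in the siControl libraries. In both genes the groups did not overlap and siVCPIP1 library 3 lay between libraries 1 and 2 and the siControl libraries. The log2 differences were -1.33 (SE 0.26) for HLA-B and -1.06 (SE 0.19) for HLA-C, and -1.66 and -1.27 without siVCPIP1 library 3. Set against the median of all genes tested, HLA-B lay 0.21 below it and HLA-C 0.07 above it on the log2 scale. Their differences were thus about as large as those of a typical gene that passed the filter. Without the filter, their distances from the median were -0.89 and -0.62. After median-of-ratios scaling, which moved the median of all genes by 1.11, the log2 differences of HLA-B and HLA-C were 0.026 and 0.31.

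The nonclassical heavy chains did not follow them. HLA-E, the ligand for natural killer cell receptors, was higher in every siVCPIP1 library, at 231.3, 232.0 and 202.3 TPM, than in any siControl library, at 164.6, 157.4 and 159.7 TPM. Its log2 difference was 0.46 (SE 0.12), with 0.53 without siVCPIP1 library 3, and HLA-E was the only 1 of the 9 genes whose siVCPIP1 libraries all lay above the siControl libraries. HLA-F stood at 27.5, 27.6 and 32.0 TPM in the siVCPIP1 libraries, against 33.4, 31.8 and 33.4 TPM in the siControl libraries. Library 3 of siVCPIP1 overlapped the siControl range, and the log2 difference was -0.18 (SE 0.15; -0.25 without siVCPIP1 library 3), but quantile normalization gave 0.70 and median-of-ratios scaling 1.16. Relative to the median of all genes tested, HLA-E lay 1.58 and HLA-F 0.95 higher, and without the filter 0.9 and 0.26 higher.

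**Figure D1:**
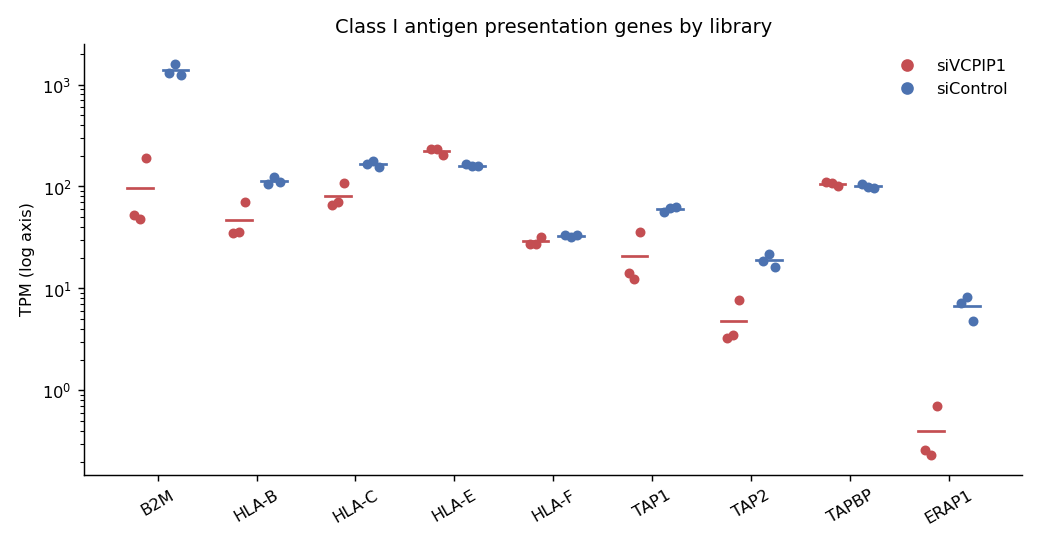
TPM (log axis) of the 9 genes in each library, siVCPIP1 in red and siControl in blue, with a bar at each group's mean. The B2M libraries of siVCPIP1 sit between 48.2 and 190.7 TPM, far under the siControl libraries, while the HLA-E libraries of siVCPIP1 sit above theirs and the HLA-F and TAPBP groups overlap.

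The transporter genes were both lower in siVCPIP1, by an amount that depended on the scaling. TAP1, which encodes a subunit of the peptide pump, stood at 14.2, 12.3 and 35.6 TPM in the siVCPIP1 libraries, against 55.6, 61.8 and 62.8 TPM in the siControl libraries. TAP2, the other subunit, stood at 3.29, 3.51 and 7.65 TPM in the siVCPIP1 libraries, against 18.8, 22.0 and 16.2 TPM in the siControl libraries. Neither pair of groups overlapped, and siVCPIP1 library 3 had the highest TPM of the siVCPIP1 group in both genes. The log2 differences were -1.65 (SE 0.34) and -1.85 (SE 0.29), and -2.10 and -2.17 without siVCPIP1 library 3. Median-of-ratios scaling gave -0.32 for TAP1 and -0.63 for TAP2, and quantile normalization gave -0.84 for TAP1 and -0.38 for TAP2. The ratio of TAP1 to TAP2 was 4.16 ± 0.60 in siVCPIP1 and 3.22 ± 0.58 in siControl (SD, n = 3 each), and the groups overlapped.

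Tapasin, which bridges the transporter and the empty heavy chain, showed no such gap in TPM as deposited. TAPBP stood at 109.9, 109.0 and 100.7 TPM in the siVCPIP1 libraries, against 105.5, 98.9 and 97.1 TPM in the siControl libraries, with overlapping groups and a log2 difference of 0.08 (SE 0.12; 0.12 without siVCPIP1 library 3). TAPBP therefore stood at 7.73, 8.89 and 2.83 times the TPM of TAP1 in the siVCPIP1 libraries, against 1.90, 1.60 and 1.55 times in the siControl libraries. Its log2 difference was 1.45 after median-of-ratios scaling, 0.34 after quantile normalization and 0.01 after GC and length correction. ERAP1, the aminopeptidase that trims peptides in the ER, was the lowest of the 9 genes in all 6 libraries. It stood at 0.26, 0.23 and 0.71 TPM in the siVCPIP1 libraries, against 7.12, 8.16 and 4.82 TPM in the siControl libraries, and siVCPIP1 held 5.97% of the siControl mean. Its log2 difference of -2.45 (SE 0.22; -2.60 without siVCPIP1 library 3) depended on the pseudocount at these low levels, with -3.86 at a pseudocount of 0.1 TPM and -1.11 at 5 TPM.

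In the fit over all genes, 6 of the 9 genes were called lower and 1 higher, where 66.0% of all genes tested were called lower and 15.0% higher, and the same 6 and 1 had groups that did not overlap, as was so for 67.9% of all genes on the lower and 18.2% on the higher side. Because the 9 genes were chosen on this comparison, nothing is read from these counts. Their median log2 difference was -1.33, beside -1.12 for all genes tested.

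The order of the 9 genes by level therefore differed between the groups. In siVCPIP1, HLA-E led with a mean of 221.8 TPM, followed by TAPBP, B2M, HLA-C, HLA-B, HLA-F, TAP1, TAP2 and ERAP1. The ranges of TAPBP, B2M and HLA-C each overlapped that of the next gene in this order, as did that of HLA-F, while the other neighbours did not overlap. In siControl, B2M led with a mean of 1386 TPM, followed by HLA-C, HLA-E, HLA-B, TAPBP, TAP1, HLA-F, TAP2 and ERAP1. There only the neighbours HLA-C and HLA-E had overlapping ranges. TPM is scaled for length, so these levels can be set side by side, although 1.51% to 6.66% of the 50-nt windows in the transcripts of the 4 heavy chains are identical to a stretch of another heavy chain gene, and how the authors assigned such reads is not given in the sources used here.

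Set against the heavy chains as a group, B2M transcripts were outnumbered in siVCPIP1 and in excess in siControl. The 4 heavy chain genes summed to 359.3, 366.0 and 412.5 TPM in the siVCPIP1 libraries, against 470.4, 492.9 and 458.0 TPM in the siControl libraries. There were 0.148, 0.132 and 0.462 B2M transcripts per heavy chain transcript in the siVCPIP1 libraries, against 2.77, 3.26 and 2.73 in the siControl libraries. The siVCPIP1 libraries thus all lay under a ratio of 1 and the siControl libraries all above it. On the log2(TPM + 1) scale, B2M minus the mean of the 4 heavy chains was 0.19 ± 0.86 in siVCPIP1 and 3.77 ± 0.16 in siControl (SD, n = 3 each), a difference of -3.58, and -4.08 without siVCPIP1 library 3. Against the mean of TAP1, TAP2, TAPBP and ERAP1, B2M lay 2.83 ± 0.71 higher in siVCPIP1 and 5.47 ± 0.09 higher in siControl, a difference of -2.64, and -3.05 without siVCPIP1 library 3.

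The make-up of the heavy chain transcripts shifted towards HLA-E. HLA-E made up 64.4%, 63.4% and 49.0% of the 4 heavy chains' TPM in the siVCPIP1 libraries, against 35.0%, 31.9% and 34.9% in the siControl libraries. HLA-B made up 12.2% ± 4.24 in siVCPIP1 and 24.1% ± 1.46 in siControl, and HLA-C 21.2% ± 4.26 and 35.05% ± 1.33 in the same groups (SD, n = 3 each). HLA-F kept a similar share, at 7.65% ± 0.11 in siVCPIP1 and 6.95% ± 0.44 in siControl. HLA-E thus had 6.58, 6.49 and 2.86 times the TPM of HLA-B in the siVCPIP1 libraries, against 1.55, 1.26 and 1.44 times in the siControl libraries. These ratios and shares are taken within a library and do not depend on a constant factor applied to a library.

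**Figure D2:**
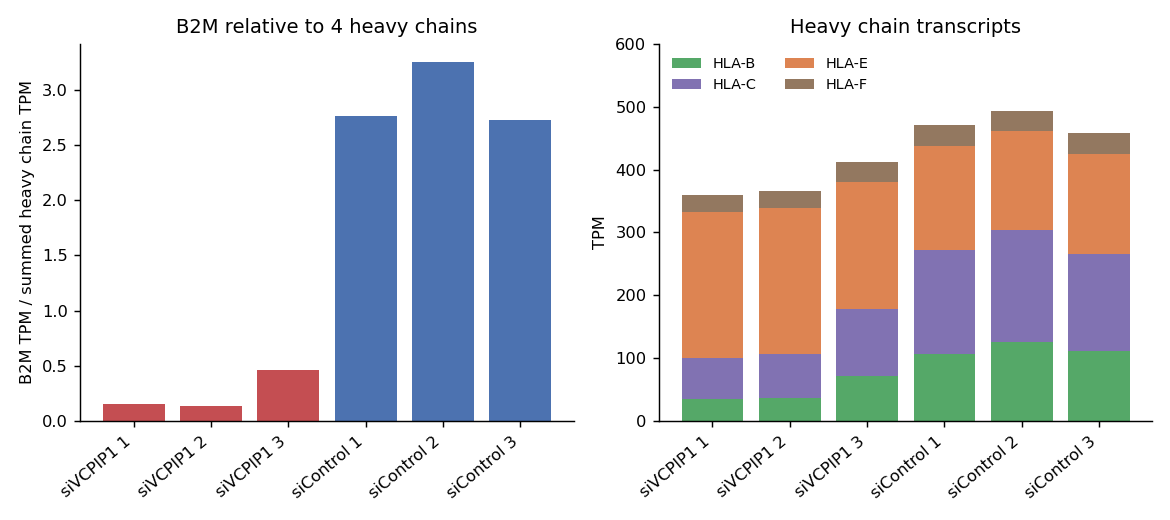
Left, B2M TPM divided by the summed TPM of HLA-B, HLA-C, HLA-E and HLA-F in each library (siVCPIP1 red, siControl blue); right, the TPM of the 4 heavy chains stacked by library. The ratio is 0.132 to 0.462 in siVCPIP1 and 2.73 to 3.26 in siControl, and the HLA-E part of the stack is the larger in siVCPIP1.

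The 9 genes differ in base composition, which moved with the difference across all genes. The longest principal transcripts of B2M and ERAP1 have a GC content of 39.4% and 39.7% (GENCODE 29), and those of the other 7 genes 54.8% to 60.2%. B2M and ERAP1, the pair with the lowest GC content, were also the pair with the lowest log2 differences of the 9. In the GC bin that holds both, the median log2 difference was -2.18, and of its 1091 genes 20 lay below B2M and 395 below ERAP1. HLA-B, HLA-F, TAP1 and TAPBP share a bin with a median of -0.12, in which 117, 513, 69 and 660 of 1091 genes lay below them. HLA-C lay in a bin with a median of 0.21, where 95 of 1092 genes were lower, and HLA-E and TAP2 in a bin with a median of -0.43, where 943 and 109 of 1092 genes were lower.

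With a smooth trend on GC content and transcript length taken out of every library, the log2 differences were -1.65 for B2M, -1.54 for HLA-B, -1.38 for HLA-C, -1.30 for TAP2 and -1.25 for TAP1. On this corrected scale B2M was close to the classical heavy chains and the transporter genes, and B2M minus the mean of the 4 heavy chains differed by -1.15 between the groups. HLA-E was 1.13 higher in siVCPIP1, HLA-F lay at -0.21, TAPBP at 0.01 and ERAP1 at -0.31. Over all genes this correction gave 31.7% lower and 37.2% higher calls. The correction has no term for level, and the pseudocount limits the log2 difference of a gene as low as ERAP1.

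**Figure D3:**
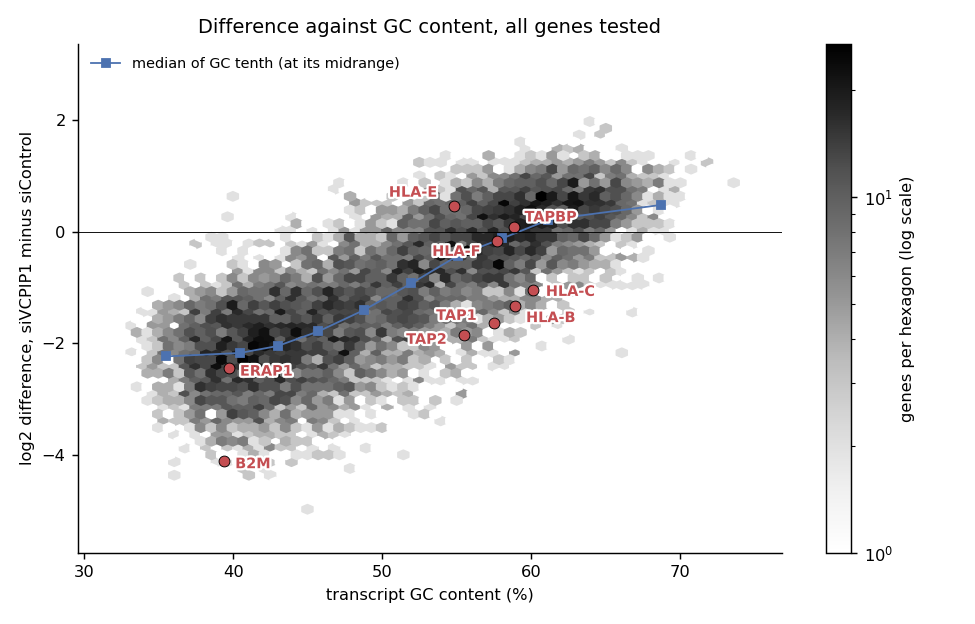
Log2 difference (siVCPIP1 minus siControl, log2(TPM + 1) scale) against transcript GC content for genes tested, as hexagons shaded by gene number on a log scale, with the 9 genes in red and the median of each GC bin in blue. B2M, at -4.11, lies under most genes of like GC content, HLA-B, HLA-C, TAP1 and TAP2 lie under the median line of theirs, and HLA-E lies above it.

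**Figure D4:**
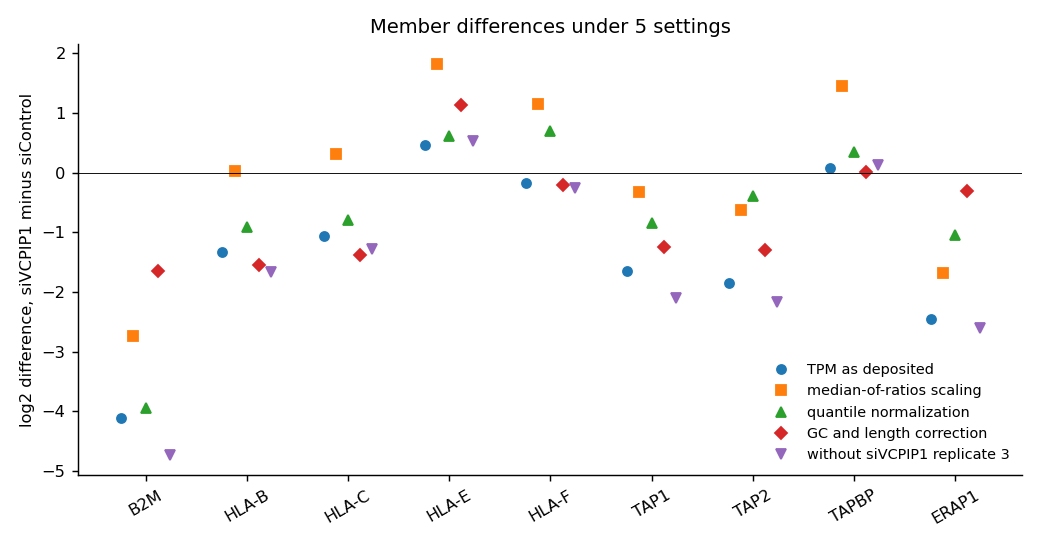
Log2 difference (siVCPIP1 minus siControl) of the 9 genes with TPM as deposited, after 2 scalings, after GC and length correction and without siVCPIP1 library 3. B2M is negative in all 5 (-4.74 to -1.65), as are TAP1, TAP2 and ERAP1. HLA-E (0.46 to 1.83) and TAPBP (0.01 to 1.45) are positive in all 5. HLA-B, HLA-C and HLA-F are positive after median-of-ratios scaling, and HLA-F also after quantile normalization.

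None of the 5 genes whose profiles over the 6 libraries were most like that of B2M was in the gene lists of the pathway. By the root mean square difference between centred log2(TPM + 1) profiles, among 7728 other genes whose mean TPM reached 5, they were SBDS (0.05), TCP1 (0.07), HMGN1 (0.08), RAB1A (0.08) and SDCBP (0.09). SBDS is a ribosome maturation factor, TCP1 a chaperonin subunit, HMGN1 a nucleosome-binding protein and RAB1A a GTPase of ER to Golgi transport. Among the 9 genes the nearest to B2M was ERAP1, at 0.97, and HLA-B lay at 1.42. The mean profile of the 4 heavy chains was most like those of CAPZB (0.02), STAT6 (0.03), DHRS7B (0.04), PI4K2A (0.04) and CNP (0.04). These distances are descriptions over 6 libraries that share the difference between the groups.

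Outside the 9 genes, the other steps of the pathway were tested with the same fit, from 67 genes in 6 lists. Of the 57 that passed the filter, 35 fell and 8 rose in siVCPIP1 by limma at an adjusted p of 0.05. The other 14 were not called. Their median log2 difference was -1.45, beside -1.12 for all genes, and their share of calls was near that of all genes. Median-of-ratios scaling left 26 lower and 25 higher, where all genes gave 42.7% and 42.3%. Quantile normalization left 28 lower and 15 higher, where all genes gave 38.8% and 42.2%. Correcting for GC content and length left 24 lower and 17 higher, where all genes gave 31.7% and 37.2%. The count of 8 was 4 without siVCPIP1 library 1 or 2, and 3 and 5 without siControl library 2 or 3, and without siVCPIP1 library 3 the counts were 39 lower and 9 higher.

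Among the other partners of B2M, heavy chains and class I-like genes together, 1 of 3 tested genes fell and 0 rose. Of all genes tested, 66.0% fell and 15.0% rose. HFE, the class I-like regulator of iron uptake, fell to 0.58, 0.54 and 0.75 TPM in the siVCPIP1 libraries, against 7.75, 7.63 and 5.53 TPM in the siControl libraries (-2.29, limma, adjusted p = 2.0e-05), but its corrected difference was -0.30 (adjusted p = 0.10). FCGRT, the heavy chain of the neonatal Fc receptor, was not called (0.33, limma, adjusted p = 0.065; 0.39 and 0.0083 without siVCPIP1 library 3; 0.41 and 0.045 without siControl library 1). HLA-G, MR1 and CD1D lay under the filter, and CD1A, CD1B, CD1C and CD1E were not among the genes analysed here.

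Of the ER chaperone and glycoprotein quality control genes, 5 of 8 tested were called lower and 0 higher, where 66.0% and 15.0% of all genes tested were. After GC and length correction 5 were lower and 0 higher, where 31.7% and 37.2% of all genes were. CANX, the membrane lectin chaperone that holds new heavy chains, fell to 9.68, 8.48 and 19.8 TPM in the siVCPIP1 libraries, against 130.8, 151.8 and 128.9 TPM in the siControl libraries (-3.43, SE 0.28, limma, adjusted p = 2.0e-05). PDIA3, the disulfide isomerase bound to tapasin, fell to 28.2, 24.3 and 65.5 TPM in the siVCPIP1 libraries, against 247.3, 284.8 and 276.1 TPM in the siControl libraries (-2.88, SE 0.32, adjusted p = 4.8e-05, limma). After GC and length correction the differences were -1.27 for CANX and -0.82 for PDIA3, and the GC bins that hold them had medians of -2.18 and -2.05 before it. UGGT1, the glucosyltransferase that marks misfolded glycoproteins, and GANAB, a glucosidase subunit, also fell (log2 differences -2.37 and -1.82; -0.76 and -0.92 corrected for GC content and length). CALR, the soluble lectin chaperone, averaged 529.4 ± 112 TPM in siVCPIP1 and 865.9 ± 71.2 TPM in siControl (SD, n = 3 each; -0.73, limma, adjusted p = 0.0027), but median-of-ratios scaling gave 0.65 and GC and length correction -0.09 (adjusted p = 0.39, limma). The tapasin relative TAPBPL was not called (0.27, limma, adjusted p = 0.21).

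The proteasome genes split by subunit. Of 11 tested, 4 rose (PSMB7, PSMB8, PSMB9 and PSMB10) and 4 fell (PSME2, PSME3, PSME4 and POMP), where 15.0% of all genes tested rose and 66.0% fell. With GC content and length corrected, 7 were higher and 2 lower, where 37.2% of all genes were higher and 31.7% lower. PSMB8, PSMB9 and PSMB10 encode the 3 interferon-inducible catalytic subunits of the immunoproteasome. PSMB9 rose to 66.0, 65.6 and 58.6 TPM in the siVCPIP1 libraries, against 38.4, 37.6 and 36.8 TPM in the siControl libraries (0.74, SE 0.13, limma, adjusted p = 0.00078), and PSMB10 averaged 140.8 ± 20.9 TPM in siVCPIP1 and 76.6 ± 14.8 TPM in siControl (SD, n = 3 each; 0.88, limma, adjusted p = 0.0018). PSMB8 rose by a smaller step (134.0 ± 5.48 TPM in siVCPIP1 and 104.5 ± 8.27 TPM in siControl; 0.36, limma, adjusted p = 0.024). That call was lost without siVCPIP1 library 1 or 2 or siControl library 1 or 2, and the call of PSMB7 (0.25, limma, adjusted p = 0.048), a constitutive subunit, without any single library but siVCPIP1 library 3. POMP, the assembly factor of the proteasome, fell to 36.3, 40.9 and 77.7 TPM in the siVCPIP1 libraries, against 165.0, 204.1 and 246.6 TPM in the siControl libraries (-2.03, limma, adjusted p = 0.00016), yet lay at 0.46 after GC and length correction, as PSME4 lay at 0.43. After median-of-ratios scaling PSME4 (-0.27) and PSME3 (-0.11) were not called, nor were PSME4 (-0.18) and PSMB7 (0.16) after quantile normalization.

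PSMB9 and TAP1 are divergent neighbours whose RefSeq start sites lie 488 bases apart, and PSMB8 and TAP2 lie beside them. PSMB9 and PSMB8 rose, while TAP1 and TAP2 were lower in every siVCPIP1 library. The 4 transcripts have similar GC content (56.1% for PSMB9, 54.9% for PSMB8, 57.5% for TAP1 and 55.5% for TAP2), and after GC and length correction the first pair lay at 0.43 and 0.47 and the transporter pair at -1.25 and -1.30. Of the annotated exonic bases of TAP1, 9.49% overlap PSMB8-AS1 on the opposite strand and 32.3% of those of TAP2 overlap a gene model on its own strand, and how such reads were assigned is not given in the sources used here.

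Of the cytosolic peptidase genes, whose products cut or destroy peptides before transport, 5 of 7 were called lower and 1 higher, close to the 66.0% and 15.0% of all genes tested. GC and length correction left 3 lower and 2 higher, where all genes gave 31.7% and 37.2%. LAP3, leucine aminopeptidase, fell to 0.65, 0.70 and 2.03 TPM in the siVCPIP1 libraries, against 34.9, 43.6 and 40.7 TPM in the siControl libraries (-4.31, SE 0.27, limma, adjusted p = 2.0e-05), and lay at -2.83 after GC and length correction. TPP2, tripeptidyl peptidase, and NPEPPS, the puromycin-sensitive aminopeptidase, also fell (log2 differences -2.81 and -2.66; -0.63 and -0.78 corrected). LNPEP, which trims peptides in endosomes, fell by 1.82 but had a corrected difference of 0.02 (limma, adjusted p = 0.85). THOP1, an oligopeptidase that destroys class I peptides, rose (39.95 ± 1.14 TPM in siVCPIP1 and 29.45 ± 2.58 TPM in siControl, SD, n = 3 each; 0.43, limma, adjusted p = 0.021). The THOP1 call was lost without siVCPIP1 library 1 or 2 or siControl library 2 or 3.

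Of the transcription factor and interferon signalling genes, 13 of 17 were called lower and 1 higher, close to the 66.0% and 15.0% of all genes tested. After GC and length correction 9 were lower and 4 higher, where 31.7% and 37.2% of all genes were. The interferon gamma receptor chain IFNGR1 fell to 0.47, 0.31 and 1.65 TPM in the siVCPIP1 libraries, against 30.7, 37.5 and 28.1 TPM in the siControl libraries (-4.25, SE 0.29, limma, adjusted p = 2.0e-05). Its partner IFNGR2 averaged 19.1 ± 11.8 TPM in siVCPIP1 and 107.9 ± 10.4 TPM in siControl (SD, n = 3 each; -2.59, limma, adjusted p = 0.00012). Both chains stayed lower after GC and length correction, at -1.82 and -2.04. The interferon regulatory factor gene IRF2 (log2 difference -3.19), the NF-kB subunit gene NFKB1 (-3.13) and NFYB, a subunit of the factor that binds CCAAT boxes (-3.13), fell as well, with corrected differences of -1.15, -1.74 and -0.81. RFX5, the DNA-binding subunit of the RFX complex, fell by 2.06 on the log2 scale, whereas its partner RFXANK rose to 126.4, 128.9 and 98.0 TPM in the siVCPIP1 libraries, against 62.1, 53.5 and 51.95 TPM in the siControl libraries (1.06, limma, adjusted p = 0.00024).

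NLRC5, the coactivator of class I genes, was not called, with 5.08, 4.49 and 5.34 TPM in the siVCPIP1 libraries, against 5.11, 5.92 and 5.06 TPM in the siControl libraries (-0.09, limma, adjusted p = 0.64). IRF1 was not called either (22.45 ± 8.15 TPM in siVCPIP1 and 27.55 ± 1.36 TPM in siControl, SD, n = 3 each; -0.34, limma, adjusted p = 0.21). Without siVCPIP1 library 3, which at 31.7 TPM exceeded every siControl library, IRF1 passed the threshold (-0.60, limma, adjusted p = 0.00027). Both lay above 0 under the other scalings: NLRC5 at 1.06 by median of ratios, 1.45 by quantiles and 0.62 with GC and length corrected, and IRF1 at 0.98, 0.68 and 0.68 in the same order. RFXAP and JAK2 lay under the filter.

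Of the genes for export and turnover of class I molecules, 7 of 11 were called lower and 2 higher (HM13 and MARCHF9), close to the 66.0% and 15.0% of all genes tested. GC and length correction left 5 lower and 4 higher, where all genes gave 31.7% and 37.2%. The ubiquitin ligases of ER-associated degradation RNF139 and SYVN1 (log2 differences -2.60 and -2.34), the mannosidase-like EDEM1 (-2.22) and the SNARE SEC22B (-1.99) fell. With GC content and length corrected, RNF139 lay at -0.51, SYVN1 at -2.06, EDEM1 at -0.47 and SEC22B at 0.12. HM13, the signal peptide peptidase that frees the leader peptides presented by HLA-E, averaged 282.9 ± 5.16 TPM in siVCPIP1 and 225.7 ± 22.9 TPM in siControl (SD, n = 3 each; 0.33, limma, adjusted p = 0.031). MARCHF9, a membrane ubiquitin ligase, rose to 10.9, 10.3 and 8.44 TPM in the siVCPIP1 libraries, against 5.98, 5.06 and 6.30 TPM in the siControl libraries (0.68, limma, adjusted p = 0.0097). The HM13 call was lost without siVCPIP1 library 1 or 2 or siControl library 2 or 3, and the MARCHF9 call without siControl library 2.

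**Figure D5:**
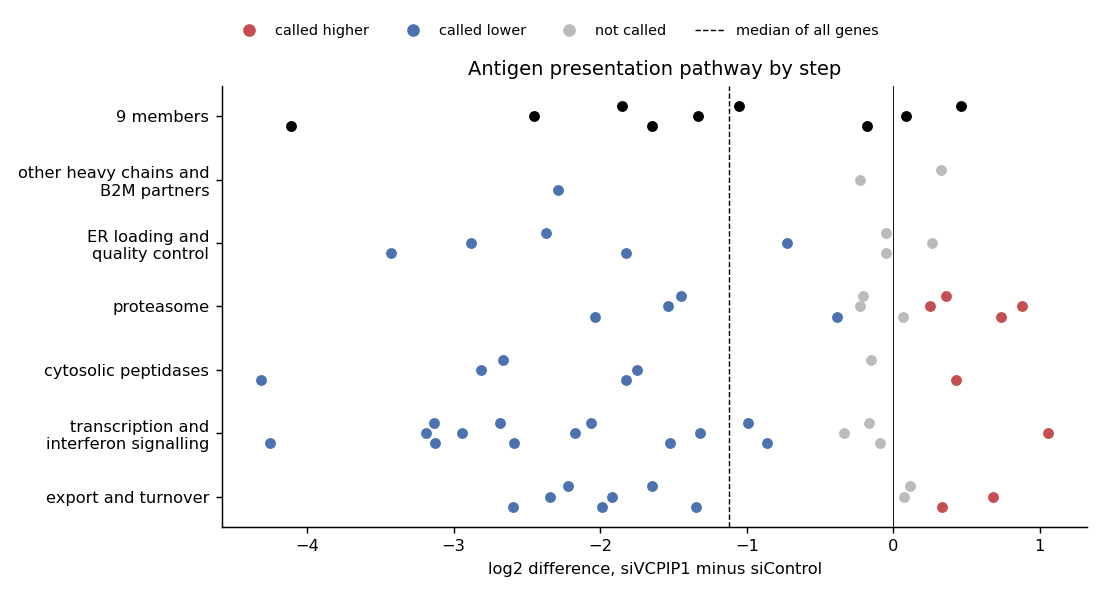
Log2 difference (siVCPIP1 minus siControl) of the 9 genes, drawn in black and without a test, and of the tested genes of the 6 other lists, in red where called higher, blue where called lower and grey where not called; the dashed line is the median of all genes (-1.12), and vertical offsets within a row only separate points. The 4 proteasome genes called higher reach 0.88. Of the 17 transcription and interferon signalling genes, 13 are called lower, against 66.0% of all genes tested.

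Of the genes annotated within the MHC interval that holds 7 of the 9, 119 others were in the table and 88 passed the filter. Of these 88, limma called 23 lower and 20 higher in siVCPIP1, against 66.0% and 15.0% of all genes tested. Their median log2 difference was 0.10, beside -1.12 for all genes, and their median GC content was 56.1%, beside 50.4%. Correcting for GC content and length left 9 lower and 50 higher, where all genes gave 31.7% and 37.2%. Median-of-ratios scaling left 3 lower and 77 higher, where all genes gave 42.7% and 42.3%. Quantile normalization left 4 lower and 67 higher, where all genes gave 38.8% and 42.2%. The count of 23 was 15 without siVCPIP1 library 2. The transporter and classical heavy chain genes, lower in every siVCPIP1 library, thus lay among neighbours of which most were not called lower.

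Among those neighbours whose mean TPM reached 5, the genes that rose most were AGER, TRIM15 and NFKBIL1. AGER, the receptor for advanced glycation end products, rose to 18.99, 17.98 and 16.03 TPM in the siVCPIP1 libraries, against 9.45, 7.85 and 6.16 TPM in the siControl libraries (1.10, limma, adjusted p = 0.00089). TRIM15, a tripartite motif protein, averaged 58.7 ± 2.24 TPM in siVCPIP1 and 27.2 ± 2.34 TPM in siControl, and NFKBIL1 averaged 72.3 ± 6.76 TPM in siVCPIP1 and 35.6 ± 5.47 TPM in siControl (SD, n = 3 each). The genes that fell most were the heat shock genes HSPA1A and HSPA1B and LY6G5B. HSPA1A fell to 3.52, 2.94 and 11.6 TPM in the siVCPIP1 libraries, against 36.0, 44.95 and 34.4 TPM in the siControl libraries (-2.69, limma, adjusted p = 0.00026). HSPA1A and HSPA1B are near-identical copies, so their separate values are uncertain. LY6G5B had a difference of -1.11 (limma, adjusted p = 0.0028) and of 0.03 after GC and length correction.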

How the data were processed

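RNA from 6 libraries of AsPC-1 cells (3 siVCPIP1, 3 siControl) was sequenced, and the authors deposited TPM per gene symbol for 15832 genes, per the file headers. Per the submitters' processing notes, the build was GRCh38.p13; aligner, counting tool, strand setting and filters were not given in the sources used here. Read numbers cannot be recovered from TPM, so depth and counting precision are unknown.

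Columns were matched to samples by name. Deposited TPM was converted to log2(TPM + 1), which understates changes of low genes. The 10966 genes whose mean TPM reached 1 were tested with limma 3.58.1 in R 4.3.3 (trend, two-sided, Benjamini-Hochberg over all genes, threshold 0.05). The fit was also run on simulated data, with equal numbers of rises and falls in few genes. Most genes were called in these data, mainly lower, so that run cannot show how the fit behaves here. GC content and length came from 1 GENCODE 29 transcript a gene (10917 genes, 99.6%). The corrected fit removed each library's splines on GC content (5 degrees of freedom) and log2 length (3). Other alternatives were pseudocounts of 0.1 and 5 TPM, other filters, median-of-ratios scaling, quantile normalization, a replicate block and leaving out each library.

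The 9 genes and all lists were chosen with earlier results of these data known. Values in every library were to be given for the 9 genes, VCPIP1, up to 4 called genes with the largest change a list, the 3 largest rises and falls in the MHC region and the 5 nearest profiles, some of which are given as means. Values of genes not called, PSMB7, PSMB8, PSMB9, RFXANK, the marker genes and other genes outside that rule were added after their values were seen. Some results are not reported here.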

Additional observations from a re-analysis of the deposited data

How the results depend on the processing

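B2M was lower and HLA-E higher in siVCPIP1 under every alternative run. TAPBP also lay above 0 under every alternative, from 0.01 to 1.45. Of 125 differences of the 9 genes under alternatives, 100 moved by less than the spread between libraries, and the others moved by more. Median-of-ratios scaling turned the sign of HLA-B (0.026), HLA-C (0.31) and HLA-F (1.16), and quantile normalization that of HLA-F (0.70), which was not called in TPM as deposited. That scaling, quantile normalization and GC and length correction moved the median of all genes by 1.11, 1.16 and 1.19, and in this order they gave 4641, 4625 and 4064 genes higher and 4677, 4258 and 3462 lower (1646 and 7241 as deposited; 4679 lower at a mean of at least 5 TPM, where fewer genes were tested), 25, 15 and 17 pathway genes higher (8 as deposited), and 77, 67 and 50 MHC neighbours higher (20) and 3, 4 and 9 lower (23; 14 at a mean of at least 5 TPM). Leaving out 1 library gave 3 to 9 pathway genes higher and 15 to 34 MHC neighbours lower. GC and length correction gave 0.27 for VCPIP1, -1.15 for B2M minus the heavy chains (-4.08 to -3.29 with 1 library left out) and -0.94 for B2M minus the loading genes (-3.46 after quantile normalization; -3.05 to -2.42 with 1 library left out; no value at a mean of at least 5 TPM, which ERAP1 does not reach). Single pathway genes followed under every alternative, PSME2 not among them, changed sign 11 times. GC and length correction gave 0.46 for POMP, 0.43 for PSME4, 0.024 for LNPEP, 0.12 for SEC22B, 0.62 for NLRC5 and 0.68 for IRF1. Median-of-ratios scaling gave 0.65 for CALR, 1.06 for NLRC5 and 0.98 for IRF1, and quantile normalization gave 1.45 for NLRC5 and 0.68 for IRF1. Among named pathway genes, 25 other values no longer passed the threshold and 8 newly passed it. The cause was not tested.

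Libraries of the same number correlated in their deviations at r = 0.531, -0.267 and 0.164, and libraries of different number at -0.539 to 0.397. Deviations from a mean of 3 libraries are tied together, so these values cannot show whether the numbers pair the libraries. With the number as a replicate block, 9 pathway genes were higher and 35 lower, 20 MHC neighbours were higher and 20 lower, 1586 of all genes were higher and 7085 lower, and FCGRT passed the threshold (adjusted p = 0.032, limma).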

Other observations

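MHC class II genes, which present peptides from outside the cell and are usually a feature of professional antigen-presenting cells, were low in AsPC-1 cells, and 4 of 10 passed the filter. HLA-DMA, a chaperone of peptide exchange, rose to 22.0, 20.6 and 17.7 TPM in the siVCPIP1 libraries, against 10.7, 13.1 and 13.8 TPM in the siControl libraries (log2 difference 0.65, limma, adjusted p = 0.0093). CD74, the invariant chain, rose to 13.3, 13.7 and 12.4 TPM in the siVCPIP1 libraries, against 8.72, 7.96 and 9.53 TPM in the siControl libraries (0.54, limma, adjusted p = 0.018), but lay at -0.01 after GC and length correction. HLA-DRA, the alpha chain of HLA-DR, fell to 0.70, 0.59 and 1.03 TPM in the siVCPIP1 libraries, against 1.47, 1.83 and 2.03 TPM in the siControl libraries (-0.65, limma, adjusted p = 0.0027), and lay at 0.94 after the same correction. CIITA, the coactivator of class II genes, lay under the filter at 0.28 to 0.51 TPM in siVCPIP1 and 0.47 to 0.77 TPM in siControl.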
